A study of Equus caballus with 68 samples.

Results

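EIF4E, the protein that holds the 5′ cap of messenger RNAs at the start of translation, was followed here together with 9 genes for its partners and regulators in equine bone marrow mononuclear cells (BMNC). The 10 genes were EIF4E, its inhibitors EIF4EBP1 and EIF4EBP2, its scaffold EIF4G1, the kinase MTOR with its adaptor RPTOR, the S6 kinase RPS6KB1, the upstream inhibitors TSC1 and TSC2, and the RNA-binding protein LARP1. They were selected by symbol out of 30371 genes listed, and each symbol was found once. All 10 were among the 14570 genes tested, and their lowest value in any library was 1.09 GeTMM, so the filter on low values (0.5 GeTMM in at least 7 libraries) made no choice among them. EIF4E was chosen because it was higher in inflamed fluid late in culture in these same libraries. Its values are therefore given as a description, with no test between groups, and it is left out of every count of called genes. LARP1 and TSC2, like EIF4E, were put forward as regulators by the study from the first interval of culture, so their change over that interval is also a description only. The other 7 were added for what they are known to do, at a time when earlier results of these data were already known.

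When eIF4E is free, it joins the scaffold eIF4G and the helicase eIF4A into the eIF4F complex, which brings the small ribosomal subunit to capped messenger RNAs. The 4E-binding proteins occupy the same surface of eIF4E and keep it out of that complex until mTOR complex 1, in which raptor (RPTOR) presents substrates to the kinase, phosphorylates and releases them. The same complex activates S6 kinase and is held back by the TSC1-TSC2 complex, while LARP1 binds the 5′ TOP motif shared by messenger RNAs of ribosomal proteins. All of these steps act on proteins and their phosphorylation, whereas only RNA levels were measured here.

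BMNC were isolated by density gradient from the sternal marrow of 8 Thoroughbred geldings and mares, 3 to 9 years old, and cultured per horse, without pooling, in undiluted fluid from that horse's own joints. Healthy synovial fluid (SF) came from middle carpal joints left untreated. Inflamed synovial fluid (ISF) came from radiocarpal joints of the same horses injected with lipopolysaccharide, a bacterial endotoxin. The fluids thus differed in joint as well as in the injection, and these cannot be told apart. Both were depleted of cells before use, and more of the stored fluid was added every 48 hours. RNA was sequenced from BMNC before culture (0 hours, 8 libraries) and after 48 hours (7 horses per fluid), 96 hours (8), 6 days (8) and 10 days (7), which gave 68 libraries, 1 for each horse, fluid and time point. The model is an acute synovitis in otherwise healthy joints, and the RNA of a library came from the cells of 1 well. Expression is given in GeTMM, a count per gene divided by gene length and then scaled across libraries, so the levels of different genes can be set side by side. A library held 15650000 to 35970000 reads on genes (median 22260000), and the 10 genes were covered by 56 reads (TSC1 in 1 library) to 15161 reads (EIF4G1).

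A few libraries stood apart from the rest. In the SF culture of the horse Moon at 6 days, 6 of the 10 genes were lower than in the other 7 SF cultures of that time, namely EIF4E, EIF4EBP2, MTOR, RPTOR, RPS6KB1 and TSC1. In the same library EIF4EBP1 was higher than in the other 7. This library stood apart over all genes too, not only over these. Its GeTMM values summed to 2321940, against at most 1458342 in any other library. It had 12797 genes above 0, against at least 14783 elsewhere. The reason is not in the labels and was not tested. The ISF libraries labelled Dealings and Dreamer at 96 hours each lay closest to the other of these horses over 200 genes that separate the horses (correlations of 0.912 and 0.904, against -0.155 and -0.111 with the horse on the label), while the other 66 libraries lay closest to their own horse. Several results below are given both with and without these 3 libraries.

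EIF4E (ENSECAG00000006472) rose in culture in both fluids and the ISF culture of every horse held more of it than the SF culture from 96 hours onwards. Before culture it ranged from 27.1 to 64.9 GeTMM with a median of 38.7. At 48 hours the lowest, median and highest ISF library held 97.8, 118 and 136 GeTMM, and the SF libraries 83.2, 97.4 and 111. At 96 hours the ISF libraries held 100.3, 149 and 186 GeTMM, and the SF libraries 76.9, 93.3 and 126. At 6 days the values were 127, 199.8 and 338 GeTMM for ISF against 25.8, 101 and 138 for SF. By 10 days the ISF libraries held 188, 215 and 324 GeTMM, and the SF libraries 80.3, 115 and 193. The highest level of all was in the ISF culture of Ollie at 6 days and the lowest in the SF culture of Moon at the same time. The ranges of the fluids overlapped at every time point, at 6 days by 1 horse on each side (RimRun in SF above Flash in ISF) and at 10 days by the SF culture of Ollie, which lay above the ISF cultures of Catnip and RimRun.

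**Figure D1:**
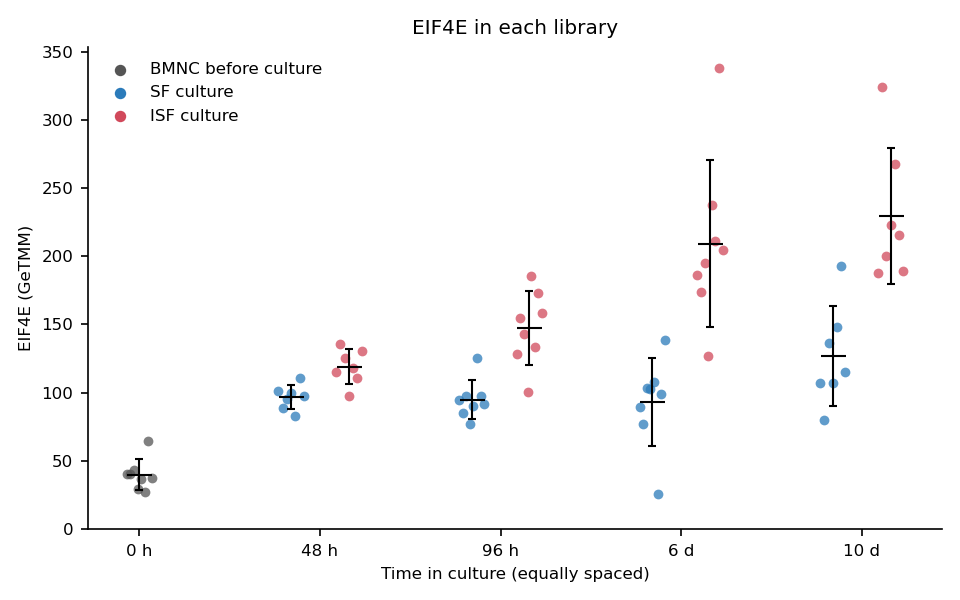
EIF4E level (GeTMM, linear axis from 0) in each of the 68 libraries by time in culture, with points for single libraries and black bars for the mean ± SD of a group. The ISF cultures move from a mean of 119 GeTMM at 48 hours to 229.5 at 10 days, while the SF cultures stay between 93.0 and 96.7 until 6 days and reach 127 at 10 days.

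The difference in EIF4E between ISF and SF, in log2(GeTMM + 1) with its standard error (SE), was 0.29 ± 0.20 at 48 hours. By 96 hours it was 0.62 ± 0.18, by 6 days 1.23 ± 0.18 and by 10 days 0.87 ± 0.20. Within horses, the ISF culture lay above the SF culture in 6 of 7 horses at 48 hours (Flash was the exception), 8 of 8 at 96 hours and 6 days, and 7 of 7 at 10 days. At 6 days the difference of a horse ran from 0.30 in Flash to 2.99 in Moon. Without the SF library of Moon the SF mean at 6 days was 103 ± 18.9 GeTMM (SD, n = 7) and the difference 0.99 ± 0.15, with ISF higher in 7 of 7 horses. With the ISF libraries of Dealings and Dreamer left out, the difference at 96 hours was 0.61 ± 0.20, with ISF higher in 6 of 6. In RNA from a whole culture, fewer cells of a type and less RNA per cell cannot be told apart, here and for the genes that follow.

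Ordered by group mean, EIF4E went from 39.9 ± 11.5 GeTMM (SD) at 0 hours to 93.0 ± 32.3 in SF at 6 days, 94.9 ± 14.2 in SF at 96 hours, 96.7 ± 8.88 in SF at 48 hours, 119 ± 12.8 in ISF at 48 hours, 127 ± 36.5 in SF at 10 days, 147 ± 27.0 in ISF at 96 hours, 209 ± 61.1 in ISF at 6 days and 229.5 ± 49.8 in ISF at 10 days. Each neighbouring pair in this order overlapped in range, the first pair through the SF library of Moon alone. From 0 to 48 hours the level rose in 7 of 7 horses in either fluid, 3.01-fold in ISF and 2.45-fold in SF on the log2(GeTMM + 1) scale, with no overlap between the groups. After that the ISF cultures held more EIF4E at the later time in 7 of 7 horses (to 96 hours) and in 8 of 8 (from there to 6 days), with differences of 0.29 ± 0.19 and 0.48 ± 0.18 on the log2 scale. Over the same intervals SF moved by -0.03 ± 0.19 and -0.14 ± 0.18, and rose in 2 of 7 and 5 of 8 horses. The second of these SF values changed sign without the library of Moon (0.10 ± 0.15, 5 of 7 horses rising). From 6 to 10 days EIF4E increased in 4 of 7 horses in ISF (0.16 ± 0.19) and in 5 of 7 in SF (0.52 ± 0.19, and 0.27 ± 0.16 in 4 of 6 without the library of Moon). The comparisons of both fluids with 0 hours share the 8 libraries taken before culture, and neighbouring intervals share a time point.

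Of the 9 other genes, none was called in ISF against SF at 48 hours, while 2 were at 96 hours and 2 at 6 days, and 1 was at 10 days. A gene was called at a false discovery rate (FDR) under 0.05 with limma over all genes tested, and of those 1.68%, 10.5%, 30.2% and 20.8% were called at the same times. The 9 genes were thus at or below the share of all genes at every time except 96 hours, where 2 of 9 stood against 10.5%. Every called difference was an increase in ISF, in EIF4G1 and RPTOR at 96 hours and 6 days and in EIF4EBP1 at 10 days. The median difference of the 9 genes was -0.08, -0.04, 0.04 and 0.01, against -0.02, -0.00, 0.00 and -0.02 over all genes. At 48 hours 2 of the 9 were under an unadjusted p of 0.05, and limma voom on recovered reads called none either.

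**Figure D2:**
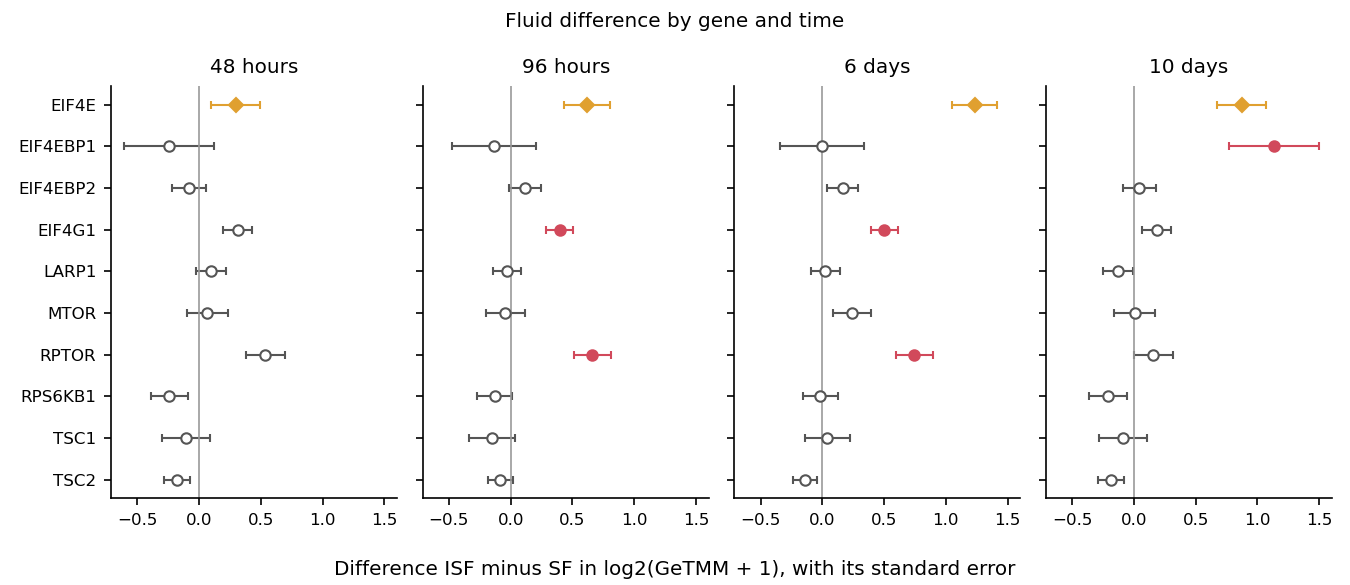
Difference between ISF and SF in log2(GeTMM + 1) for the 10 genes at the 4 time points, with its standard error. Red points are called by limma (FDR under 0.05), open points are not, and the diamonds of EIF4E carry no test. EIF4G1 and RPTOR sit above 0 at 48 hours, 96 hours and 6 days, and EIF4EBP1 at 1.13 at 10 days has the widest error of the called genes.

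EIF4G1 (ENSECAG00000008046), the scaffold that ties eIF4E to the ribosome, was the gene of the 9 whose level correlated best with EIF4E. It ranged from 41.9 to 69.8 GeTMM before culture (median 50.6) and rose in 7 of 7 horses by 48 hours in ISF (1.13 ± 0.11, limma FDR 6.13e-13) and in SF (0.82 ± 0.11, limma FDR 1.64e-08), with no overlap between the groups. At 96 hours ISF cultures ranged from 117 to 159 GeTMM (median 135) and SF cultures from 81.3 to 124 (median 103.7), and at 6 days from 94.7 to 176 (median 137) and 71.4 to 123 (median 94.6). The ISF culture was the higher one in every horse at 96 hours, 6 days and 10 days, while the ranges overlapped. The difference was 0.31 ± 0.12 at 48 hours (limma FDR 0.175), 0.40 ± 0.11 at 96 hours (0.0124) and 0.50 ± 0.11 at 6 days (0.000324), and by 10 days it was 0.18 ± 0.12 (0.288). The call at 6 days was kept under all 17 alternatives, without the SF library of Moon among them (0.48 ± 0.11, limma FDR 0.00056). The call at 96 hours was lost once the ISF libraries of Dealings and Dreamer were left out (0.34 ± 0.12, limma FDR 0.0781), without the horse Dreamer (0.0861), without the horse Flash (0.0598) and after quantile normalisation (0.059).

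EIF4EBP1 (ENSECAG00000015719) and EIF4EBP2 (ENSECAG00000034245), which both sequester eIF4E, went different ways. EIF4EBP1 was the lesser of the pair before culture, from 10.7 to 26.1 GeTMM (median 14.8) against 28.9 to 44.5 (median 42.3) for EIF4EBP2. By 48 hours EIF4EBP1 rose in 7 of 7 horses in ISF (1.31 ± 0.35, limma FDR 0.00129) and in SF (1.56 ± 0.35, limma FDR 0.000198), to medians of 36.8 and 45.6 GeTMM and clear of the range at 0 hours. EIF4EBP2 did not pass the test over that interval (0.10 ± 0.13 in ISF, limma FDR 0.545, and 0.18 ± 0.13 in SF, limma FDR 0.274). It fell later, in SF from 48 to 96 hours in 7 of 7 horses (-0.46 ± 0.13, limma FDR 0.00653). From 96 hours to 6 days its values were -0.42 ± 0.13 in SF (8 of 8 horses lower, limma FDR 0.0669) and -0.37 ± 0.13 in ISF (7 of 8 lower, limma FDR 0.0677), and a term for horse brought both under the threshold (limma FDR 0.0416 and 0.0454). Leaving out the SF library of Moon gave -0.24 ± 0.10 in SF (7 of 7 horses lower, limma FDR 0.257) and -0.37 ± 0.09 in ISF (limma FDR 0.00582). By 10 days EIF4EBP2 ranged from 21.95 to 27.6 GeTMM in ISF and from 20.6 to 28.2 in SF, below the lowest library at 0 hours.

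Late in culture EIF4EBP1 had the widest spread among horses of the 10 genes, with a coefficient of variation of 87.1% in ISF at 6 days and 78.1% at 10 days. At 6 days the ISF cultures of Flash and Catnip held 90.0 and 66.7 GeTMM, while the other 6 ranged from 12.1 to 32.0. At 10 days the ISF cultures held 152 GeTMM in Catnip, 101 in RimRun, 79.2 in Ollie, 44.1 in Dreamer, 36.2 in Dealings, 25.9 in Lurie and 9.06 in Moon. Of the SF cultures at 10 days, that of Lurie held 59.8 GeTMM and the other 6 ranged from 13.5 to 20.9. The ISF culture was the higher one in 5 of 7 horses and the lower one in Lurie and Moon, and the mean difference of 1.13 ± 0.36 was called (limma FDR 0.0191). The call was lost in a fit of the compared groups alone (limma FDR 0.135) and without any 1 of 5 horses, Catnip (difference 0.77, limma FDR 0.165), Ollie (0.114), RimRun (0.0839), Dealings (0.0617) or Dreamer (0.0527). At the earlier times the difference of EIF4EBP1 between the fluids was -0.24 ± 0.36, -0.13 ± 0.34 and -0.00 ± 0.34, and that of EIF4EBP2 was -0.08 ± 0.14, 0.11 ± 0.13 and 0.16 ± 0.13, with 0.05 ± 0.14 at 10 days, none of them called. Without the SF library of Moon those at 6 days were 0.17 ± 0.35 and -0.01 ± 0.10.

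**Figure D3:**
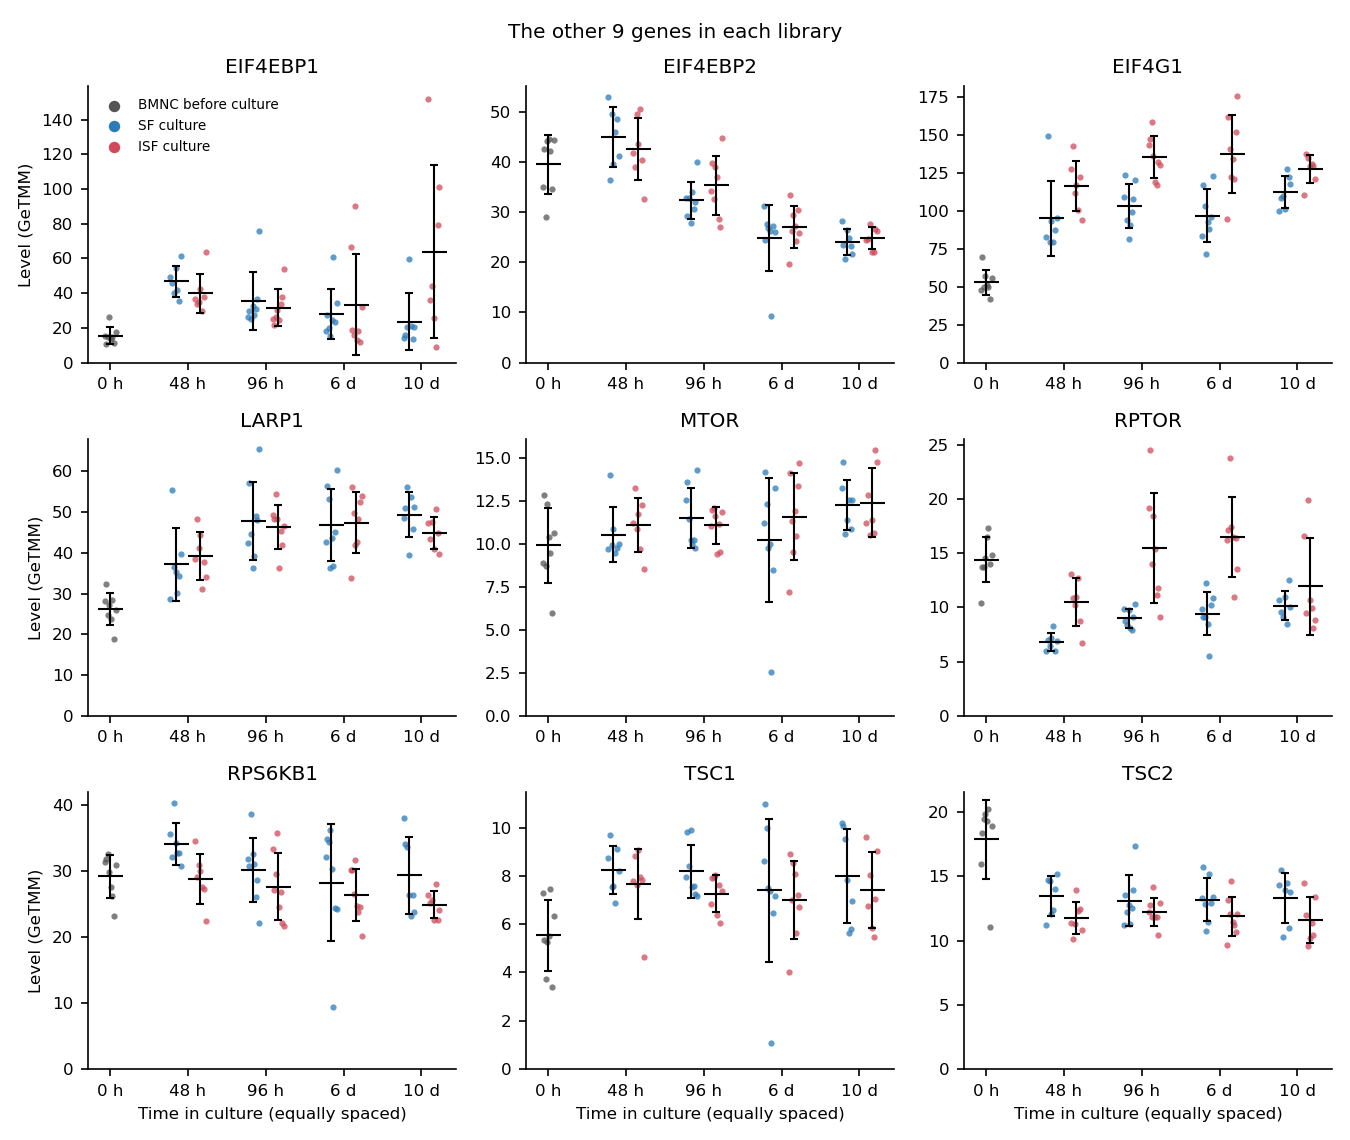
Level (GeTMM, linear axes from 0 that differ between panels) of the other 9 genes in each library by time in culture, with black bars for the mean ± SD of a group. EIF4EBP1 spreads from 9.06 to 152 GeTMM in ISF at 10 days, EIF4EBP2 has its lowest medians at 10 days in both fluids, and RPTOR is above SF in ISF at 96 hours and 6 days.

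The level of EIF4E relative to the sum of its inhibitors was computed in each library. EIF4E over the sum of EIF4EBP1 and EIF4EBP2 had a median of 0.695 before culture (0.419 to 1.41). In ISF its median went from 1.46 (48 hours) to 2.305 (96 hours) and 4.07 (6 days), and then to 2.79 (10 days). The medians of the SF cultures were 1.06, 1.45, 2.04 and 2.74 at the same times. The ratio was higher in the ISF culture in 7 of 7, 8 of 8 and 7 of 8 horses up to 6 days and in 3 of 7 at 10 days, when the ISF cultures spread from 1.07 to 8.60. Against the scaffold, EIF4E over EIF4G1 was higher in ISF in 3 of 7 horses at 48 hours and 5 of 8 at 96 hours, then in 7 of 8 at 6 days and 7 of 7 at 10 days, with medians at 10 days of 1.70 in ISF and 1.08 in SF. These ratios contain EIF4E, whose late difference chose it, and carry no test. In the SF library of Moon at 6 days the ratio to the inhibitors was 0.368, and the other 7 SF cultures ranged from 1.49 to 2.44.

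**Figure D4:**
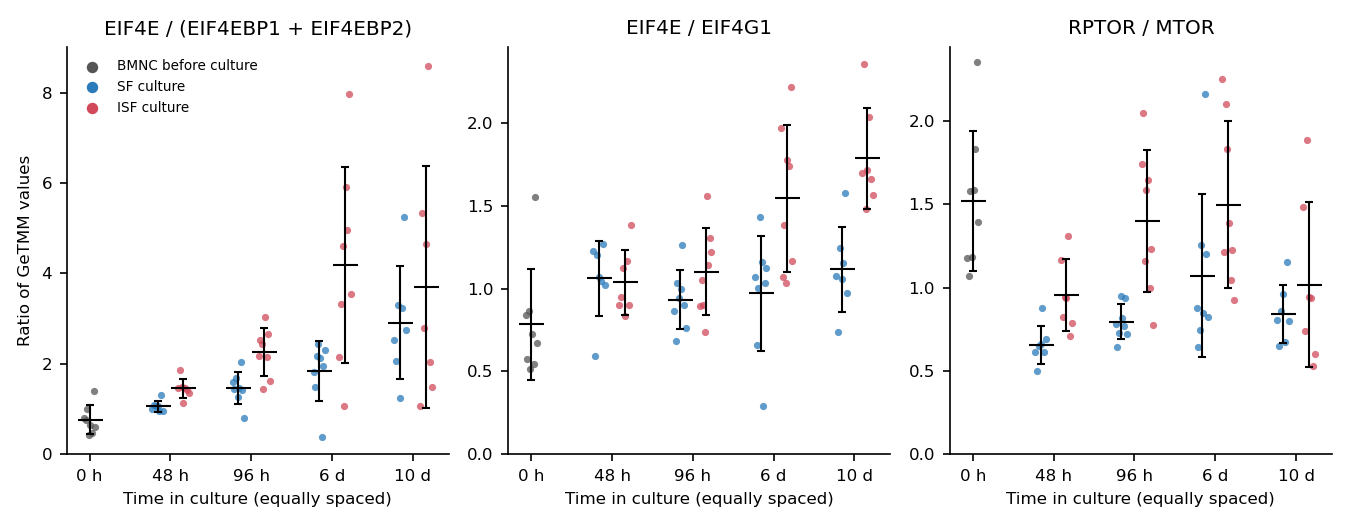
Ratios of GeTMM values in each library by time in culture, with black bars for the mean ± SD of a group. EIF4E over its 2 inhibitors reaches medians of 4.07 in ISF and 2.04 in SF at 6 days, EIF4E over EIF4G1 is higher in ISF in 7 of 7 horses at 10 days, and RPTOR over MTOR is higher in ISF in 8 of 8 horses at 96 hours.

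RPTOR (ENSECAG00000017757), the adaptor that defines mTOR complex 1, fell at the start of culture and recovered in ISF. It ranged from 10.4 to 17.3 GeTMM before culture (median 14.3). By 48 hours it was lower in 7 of 7 horses in SF (-0.97 ± 0.15, limma FDR 3.05e-07), where no culture exceeded 8.27 GeTMM, and in 6 of 7 horses in ISF (-0.44 ± 0.15, limma FDR 0.0134, and 0.0741 without the horse RimRun). In ISF the level then ranged from 9.16 to 24.6 GeTMM at 96 hours (median 14.7) and from 10.97 to 23.8 at 6 days (median 16.4), while SF cultures ranged from 7.89 to 10.3 (median 8.96) and from 5.54 to 12.3 (median 9.51). RimRun was the horse whose ISF culture did not lie above its SF culture at 48 and 96 hours. The difference between the fluids was 0.53 ± 0.16 at 48 hours (limma FDR 0.0638), 0.66 ± 0.15 at 96 hours (0.00133) and 0.74 ± 0.15 at 6 days (7.57e-05), and by 10 days it was 0.16 ± 0.16 (0.54). The calls at 96 hours and 6 days were kept under all 17 alternatives, at 96 hours with 0.56 ± 0.15 once the ISF libraries of Dealings and Dreamer were left out (limma FDR 0.0168) and at 6 days with 0.65 ± 0.15 without the SF library of Moon (limma FDR 0.000327). At 48 hours the difference was called with a term for horse (limma FDR 0.0242) and under 6 of the other 16 alternatives.

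Within ISF, RPTOR rose from 48 to 96 hours in 7 of 7 horses (0.49 ± 0.15, limma FDR 0.0175) and fell from 6 to 10 days in 6 of 7 (-0.47 ± 0.15, limma FDR 0.0338). The first of these calls was lost once the ISF libraries of Dealings and Dreamer were left out (0.38 ± 0.16, limma FDR 0.103), without Dealings (0.0974) or Flash (0.0539) alone and in a fit of the compared groups (0.0695). The second was lost without any 1 of the horses Dealings, Flash, Lurie, Ollie and RimRun (limma FDR 0.0686 to 0.177) and in a fit of the compared groups (0.132). In SF the rise from 48 to 96 hours was 0.36 ± 0.15 (6 of 7 horses, limma FDR 0.0734, and 0.0281 with a term for horse). MTOR (ENSECAG00000015638), the kinase itself, had group medians from 9.94 to 12.5 GeTMM. It was not called in any interval or at any time, and its difference between the fluids was 0.07 ± 0.17, -0.04 ± 0.16, 0.24 ± 0.16 and 0.01 ± 0.17, with 0.02 ± 0.12 at 6 days without the SF library of Moon. RPTOR over MTOR was higher in the ISF culture in 7 of 7, 8 of 8 and 7 of 8 horses up to 6 days and in 4 of 7 at 10 days.

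TSC1 (ENSECAG00000009564) and TSC2 (ENSECAG00000021222) form the complex that restrains mTOR complex 1. TSC2 held 11.04 to 20.3 GeTMM before culture (median 19.1), with 7 of the 8 horses between 15.96 and 20.3, and by 48 hours lay between 10.1 and 13.97 in ISF and between 11.2 and 15.2 in SF. It was lower at 48 hours in 6 of 7 horses in either fluid, by 0.55 ± 0.10 and 0.37 ± 0.10 on the log2 scale, and Ollie, which had the lowest level at 0 hours, was the exception. TSC1 was the lowest of the genes at 0 hours (3.38 to 7.45 GeTMM) and moved the other way, with an increase in SF in 7 of 7 horses (0.53 ± 0.19, limma FDR 0.0181) and 0.42 ± 0.19 in ISF (6 of 7 horses, limma FDR 0.0545). The SF call was lost without Dealings (limma FDR 0.0527), Dreamer (0.0587) or Ollie (0.0995), and the ISF value passed under 6 of the 17 alternatives, for example with the SF library of Moon (6 days) left out of the fit (0.0059). Neither gene differed past the threshold between the fluids. For TSC2 the difference was -0.18 ± 0.10, -0.08 ± 0.10, -0.14 ± 0.10 and -0.18 ± 0.10 in order of time, and for TSC1 it was -0.11 ± 0.20, -0.15 ± 0.18, 0.04 ± 0.18 and -0.09 ± 0.20, with -0.23 ± 0.14 at 6 days without the SF library of Moon.

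RPS6KB1 (ENSECAG00000013890) encodes S6 kinase 1, which phosphorylates ribosomal protein S6. It ranged from 23.1 to 32.6 GeTMM before culture (median 30.3) and its group medians stayed between 25.1 and 32.7 GeTMM. At 48 hours the ISF culture was the lower one in 7 of 7 horses, with ranges of 22.3 to 34.5 GeTMM in ISF and 30.7 to 40.3 in SF, yet the mean difference of -0.24 ± 0.15 was not called (limma FDR 0.497). Later differences were -0.13 ± 0.14, -0.02 ± 0.14 and -0.21 ± 0.15, and without the SF library of Moon the one at 6 days was -0.22 ± 0.11 (6 of 7 horses lower, limma FDR 0.108).

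LARP1 (ENSECAG00000017002), which binds and represses TOP messenger RNAs when mTOR complex 1 is inactive, rose in culture in both fluids. It held 18.8 to 32.3 GeTMM before culture (median 26.5). At 48 hours it ranged from 31.1 to 48.2 in ISF and from 28.6 to 55.4 in SF, an increase of 0.57 ± 0.12 and 0.48 ± 0.12 on the log2 scale with every one of 7 horses rising in either fluid. A further rise from 48 to 96 hours was called in SF (0.36 ± 0.12, 7 of 7 horses, limma FDR 0.0176) and had 0.24 ± 0.12 in ISF (7 of 7 horses, limma FDR 0.169). The SF call was lost without Catnip (0.0594), Ollie (0.056) or RimRun (0.0668) and in a fit of the compared groups (0.0599). At 96 hours, 6 days and 10 days the group medians lay between 44.3 and 51.0 GeTMM. The difference between the fluids was 0.09 ± 0.12, -0.03 ± 0.12, 0.02 ± 0.12 and -0.13 ± 0.12 in order of time, and it was not called under any of the 17 alternatives.

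Counted over the first interval, where LARP1 and TSC2 are left out as well, 3 of 7 genes were called in ISF (EIF4EBP1 and EIF4G1 up, RPTOR down) and 4 of 7 in SF (these and TSC1, up), against 52.7% and 45.4% of all genes. Of 9 genes, 1 was called in ISF from 48 to 96 hours (19.0% of all genes), none over the next interval (6.38%) and 1 from 6 to 10 days (10.5%). In SF the counts were 2 (27.3% of all genes), none (2.05%) and none (4.78%). Each of these intervals without a call had 1 gene under an unadjusted p of 0.05, and limma voom called none there. An interaction term between fluid and time asked whether the difference between the fluids changed over each interval. None of the 9 genes was called for any of the 3 changes, with 0, 0 and 2 genes (EIF4EBP1 and RPTOR) under an unadjusted p of 0.05, while of all genes 0.0206%, 0% and 0.226% were called, and limma voom called none of the 9. From 6 to 10 days the difference between the fluids changed by 1.14 ± 0.50 for EIF4EBP1 (limma FDR 0.283) and by -0.59 ± 0.22 for RPTOR (limma FDR 0.188), and neither passed.

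Markers of cell types moved with the fluids and with time. The 7 macrophage markers CD68, CD163, MRC1, GPNMB, SPP1, TREM2 and MSR1 were all measured and summed to 183.7 to 307 GeTMM before culture, 14661 to 100400 in ISF and 20627 to 99905 in SF at 6 days, and 47200 to 82485 and 29897 to 75174 at 10 days. Their mean log2 level was higher in ISF in 7 of 8 horses at 6 days (by 0.37) and in 7 of 7 at 10 days (by 0.40). Of 8 neutrophil precursor markers 6 were found, and their sum was 11356 to 20997 GeTMM before culture, 2.76 to 2393 in ISF and 89.4 to 4799 in SF at 6 days. Their mean log2 level was lower in ISF in 8 of 8 horses at 6 days (difference -2.59) and in 6 of 7 at 10 days (-2.07). The 5 T cell markers summed to 127 to 321 GeTMM before culture, 8.57 to 47.3 in ISF and 28.6 to 228 in SF at 6 days, and were lower in ISF in 8 of 8 horses (difference in mean log2 level -1.81). The 4 cell cycle markers found (of 5) were higher in ISF in 8 of 8 horses at 96 hours (by 0.81) and at 6 days (by 0.90), and in 2 of 7 at 10 days. The 5 fibroblast or stromal markers were lower in ISF in 6 of 7 horses at 10 days (-2.90), with sums of 0.123 to 49.2 GeTMM in ISF and 0.406 to 4038 in SF. The 4 erythroid markers found (of 5) summed to 76.2 to 1230.4 GeTMM before culture and to at most 1.53 at 10 days. Of all these markers ALAS2, an erythroid one, was the one at 0 in every library of a group (ISF at 10 days). The part of cell composition in the differences of EIF4E, EIF4G1 and RPTOR was not tested.

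Across the 68 libraries, which share horses, time points and cell composition, EIF4E correlated with EIF4G1 (Pearson's r of log2 levels 0.778), LARP1 (0.555) and TSC2 (-0.736), and EIF4G1 with LARP1 (0.835). Without the SF library of Moon these were 0.801, 0.566, -0.745 and 0.835. The correlation of MTOR with TSC1 went from 0.732 to 0.524 and that of RPS6KB1 with TSC1 from 0.645 to 0.403 without that library. EIF4E had 0.159 with EIF4EBP1 and -0.227 with EIF4EBP2, which became 0.222 and -0.472 once it was left out. Among 8598 genes with a mean of at least 5 GeTMM, those most like EIF4E over the libraries were SOAT1, a sterol acyltransferase of the endoplasmic reticulum (0.942), ARV1 (0.934), the palmitoyltransferase ZDHHC6 (0.931), the chaperonin subunit CCT6A (0.929) and PRELID3B (0.927). Those most like LARP1 were SND1 (0.877), the Golgi mannosidase MAN2A2 (0.872), the mitochondrial aspartate-glutamate carrier SLC25A13 (0.864), the dynein heavy chain DYNC1H1 (0.860) and PUDP (0.856). These are descriptions of levels that also follow time in culture.

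Around these genes, 8 lists of the pathway (214 genes, of which 189 were tested) were read for ISF against SF. The list of ribosomal proteins and other TOP messenger RNAs, the transcripts that LARP1 binds, had 66 of its 72 tested genes lower in ISF at 6 days and none higher, against 30.2% of all genes called. At 48 hours, 96 hours and 10 days none of the 72 was called, with 1, 11 and 0 under an unadjusted p of 0.05, and limma voom called none at these times. At 96 hours 70 of the 72 lay below 0, and the count called depended on the model. A term for horse called 3 of them, leaving out the SF library of Moon 7 and quantile normalisation 11. A fit of the compared groups called 29 and library weights 36. All of these were lower in ISF. Of all genes, the first 4 of these settings called 16.7%, 16.7%, 11.4% and 18.4%. The share under library weights is not given, so the 36 has no share to be read against. Those weights raised the counts of the other lists too, for example from 2 to 13 of 27 other initiation factors at 96 hours. After quantile normalisation 18 were called lower at 10 days, at a median of -0.25 (21.7% of all genes were called), and without the SF library of Moon 1 was called higher at that time. The median difference was -0.01, -0.27, -0.75 and -0.05 in order of time, against -0.02, -0.00, 0.00 and -0.02 over all genes. The mean log2 level of the 72 genes at 6 days ran from 8.85 to 9.89 in ISF (median 9.26) and from 9.46 to 11.95 in SF (median 9.84), and was lower in ISF in 7 of 8 horses, with Catnip as the exception. The highest SF value was that of Moon. Without that library 56 of the 72 were called lower, at a median of -0.47, against 36.2% of all genes. In a fit of the compared groups alone, with that library kept, 4 were called, a smaller share than the 13.7% of all genes. RPS12 (949 ± 328 GeTMM in ISF and 2599 ± 2681 in SF, SD) had the lowest value, -1.14 ± 0.22 (limma FDR 3.77e-05). Without the library of Moon its SF mean was 1663 ± 458 GeTMM and the difference -0.83 ± 0.16 (limma FDR 6.005e-05). RPS10 was at -1.13 ± 0.28 (limma FDR 0.00154), which moved to -0.71 ± 0.21 without the library of Moon. RPS2 and EEF1G, which changed least among the called genes of the list (-0.45 ± 0.16 and -0.47 ± 0.15), were no longer called without the library of Moon (limma FDR 0.106 and 0.0576). From 0 to 48 hours 41 genes of the list fell and 1 rose in ISF, and 36 fell and 1 rose in SF, beside 52.7% and 45.4% of all genes called in either direction.

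**Figure D5:**
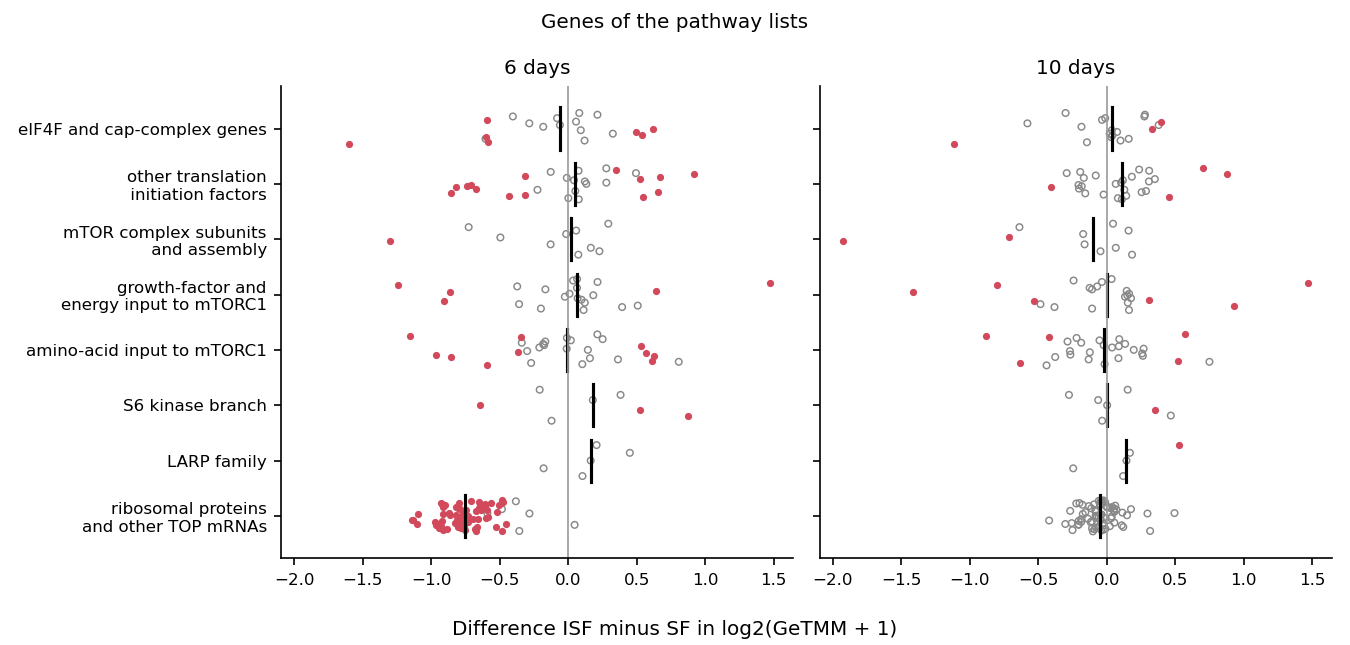
Difference between ISF and SF in log2(GeTMM + 1) for each tested gene of the 8 pathway lists at 6 days and at 10 days, with red points for genes called by limma (FDR under 0.05), open points for the others and black bars for list medians. The ribosomal and TOP list lies at a median of -0.75 at 6 days with 66 of 72 genes called, against 30.2% of all genes. Without the SF library of Moon 56 were called at a median of -0.47 (36.2% of all genes). A fit of the compared groups called 4 (13.7% of all genes). At 10 days the list lies at -0.05 with none called, against 20.8% of all genes (18 called after quantile normalisation). These other settings are not drawn.

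Of 19 genes for eIF4F and cap-complex proteins, 3 were called higher and 4 lower at 6 days. At 10 days 2 were higher and 1 lower. Of all genes, 30.2% and 20.8% were called at these times in either direction. Without the SF library of Moon the counts were 4 and 6 at 6 days, and 3 and 2 at 10 days. The shares of all genes were then 36.2% and 28.3%. A fit of the compared groups called 1 higher and 4 lower at 6 days (13.7% of all genes). PDCD4, an inhibitor of the helicase eIF4A, had the lowest value in the list, at 34.5 ± 9.23 GeTMM in ISF against 106 ± 27.1 in SF at 6 days (-1.60 ± 0.18, 0 of 8 horses higher, limma FDR 5.68e-10) and 44.8 ± 13.0 against 95.6 ± 13.5 at 10 days (-1.12 ± 0.20, limma FDR 1.94e-05). EIF4G2, a scaffold relative that does not bind eIF4E, was higher in ISF at 6 days (0.62 ± 0.11, 8 of 8 horses, limma FDR 7.25e-06) and 10 days (0.33 ± 0.11, 7 of 7 horses, limma FDR 0.0305). Of the eIF4E kinases, MKNK1 was higher (0.54 ± 0.14, limma FDR 0.0022) and MKNK2 lower (-0.60 ± 0.14, limma FDR 0.000951) at 6 days, each in every horse. EIF4E2, a cap-binding relative of eIF4E, was higher at 10 days (0.40 ± 0.11, 7 of 7 horses, limma FDR 0.00493).

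Among 27 other initiation factors, 6 were called higher and 8 lower at 6 days, and 3 higher and 1 lower at 10 days. Of all genes, 30.2% and 20.8% were called at these times. Without the library of Moon the counts at 6 days were 11 and 7 (36.2% of all genes). In a fit of the compared groups they were 2 and 4 (13.7% of all genes). EIF2AK3, the kinase PERK of the endoplasmic reticulum that inhibits eIF2, was higher in ISF in every horse at both times (0.92 ± 0.18, limma FDR 4.81e-05, and 0.88 ± 0.19, limma FDR 0.000413). EIF2B1 was higher at 6 days (0.67 ± 0.16, and 0.39 ± 0.10 without the library of Moon), and EIF1 and EIF5, which act in start codon selection, at 10 days (0.70 ± 0.15 and 0.45 ± 0.15). The eIF3 subunits EIF3F and EIF3K were lower at 6 days (-0.82 ± 0.13 and -0.86 ± 0.20), and EIF3F also at 10 days (-0.41 ± 0.14).

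Of the 10 other mTOR complex subunits and assembly factors, none was called higher at 6 or 10 days. At 6 days 1 was lower (2 without the library of Moon), against 30.2% of all genes (36.2% without it). At 10 days 2 were lower, against 20.8% of all genes. A term for horse called 3 lower at each time, beside 36.1% and 27.1% of all genes. PRR5L, which associates with mTOR complex 2, was at 5.49 ± 3.22 GeTMM in ISF and 13.4 ± 4.01 in SF at 6 days (-1.30 ± 0.25, limma FDR 5.84e-05) and at 3.82 ± 1.53 and 17.3 ± 6.15 at 10 days (-1.92 ± 0.27, limma FDR 3.31e-07). The other one at 10 days was its relative PRR5 (-0.71), named here after its value was seen. Of 22 genes for growth-factor and energy input, 2 were higher and 3 lower at 6 days, against 30.2% of all genes. At 10 days 3 were higher and 3 lower, against 20.8% of all genes. At 6 days the median difference was 0.07. Without the library of Moon 1 was higher and 6 were lower at 6 days, at a median of -0.10 (36.2% of all genes called). A fit of the compared groups called 0 higher and 3 lower at that time (13.7% of all genes). DDIT4, an inhibitor of mTOR complex 1 induced by stress, was higher at 6 days (1.47 ± 0.48, 8 of 8 horses, limma FDR 0.0155) and 10 days (1.47 ± 0.52, 5 of 7 horses, limma FDR 0.0348), with group SDs of 156 and 168 GeTMM around ISF means of 106 and 138. SESN2, another inhibitor, was higher at 10 days (0.93 ± 0.28). The phosphoinositide kinase subunit PIK3CD, found mainly in leukocytes, was lower in every horse at 6 days (-0.86 ± 0.22) and 10 days (-1.41 ± 0.23), as was the AMPK subunit PRKAG2 (-0.90 ± 0.15 and -0.53 ± 0.16). PIK3CB was called higher at 6 days (0.64 ± 0.21, limma FDR 0.0165) but not without the library of Moon (0.28 ± 0.13, limma FDR 0.0863).

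Of 27 genes for amino-acid input, 4 were called higher and 6 lower at 6 days, against 30.2% of all genes. In a fit of the compared groups the counts were 2 and 4 (13.7% of all genes). Without the library of Moon they were 4 and 8 (36.2% of all genes). At 10 days 2 were higher and 3 lower, against 20.8% of all genes. Without the library of Moon the counts at 10 days were 4 and 4, against 28.3%. SLC3A2, the heavy chain of the transporter that carries leucine, was higher in ISF at 6 days (0.61 ± 0.16, 7 of 8 horses) and 10 days (0.52 ± 0.18, 6 of 7 horses), and the arginine sensor CASTOR1 at 10 days (0.57 ± 0.16, 7 of 7 horses). Of the Rag GTPases, which bring mTOR complex 1 to the lysosome, RRAGB and RRAGD were lower at 6 days in every horse (-0.97 ± 0.17 and -0.86 ± 0.16), while RRAGC was called higher (0.63 ± 0.23, limma FDR 0.0343) but not without the library of Moon (0.18 ± 0.10, limma FDR 0.158). In the S6 kinase branch, 2 of 7 genes were higher at 6 days, the p90 kinases RPS6KA3 (0.87 ± 0.18) and RPS6KA1 (0.53 ± 0.10). RPS6, the substrate, was lower (-0.64 ± 0.18, and -0.41 ± 0.15 without the library of Moon). These 3 of 7 genes called stand against 30.2% of all genes at 6 days. RPS6KB1 itself, described above, was not called at 6 or 10 days. RPS6KA1 alone was called at 10 days (0.35 ± 0.11), against 20.8% of all genes. At that time a term for horse called 2 genes of the branch (27.1% of all genes) and quantile normalisation none (21.7%). Of 5 LARP family genes tested none was called at 6 days and 1 at 10 days, LARP1B (0.52), named after its value was seen. The shares of all genes were 30.2% and 20.8%. At 6 days 1 of the 5 had an unadjusted p under 0.05, and limma voom called none, while 1 was lower without the library of Moon. Quantile normalisation called 1 higher and 1 lower at that time (29.9% of all genes), and library weights called 1 lower. Of the 24 genes named from these lists at 6 days, 20 were still called without the library of Moon.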

How the data were processed

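BMNC of 8 horses gave 68 RNA-seq libraries, grouped by fluid and time as labelled. The authors trimmed reads with TrimGalore 0.4.3, aligned them to EquCab 3.0 with STAR 2.7.2a, which also counted reads per Ensembl 104 gene, and deposited GeTMM values, an RPKM-type unit made with edgeR (counts per kilobase, then scaled between libraries). Replicates are separate horses, with 1 library each per group. Read depths were recovered from the steps between low values, and for all 24065 genes above 0 the values came out as whole reads within 0.02 reads.

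Of 30371 genes, 14570 reached 0.5 GeTMM in 7 or more libraries and were fitted as log2(GeTMM + 1) with limma 3.58.1 in R 4.3.3 (9 groups, all libraries, trended variances). Tests were two-sided, with Benjamini-Hochberg adjustment over all genes tested within a comparison. Fold changes on this scale understate those of low genes. The fits were tested on simulated data. The members and lists were chosen with earlier results of these data known. The 10 genes are all named. From each pathway list the text names, at 6 and at 10 days, up to 2 called genes at either end of the range of differences (mean of at least 5 GeTMM in a fluid), and for EIF4E and LARP1 the 5 genes most correlated.

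Horses pair the libraries across groups, by the names in the labels. Over 258 pairs of libraries of a horse, the median correlation of deviations from the group means was 0.263 (lowest -0.233, 222 pairs over 0.1), against -0.0397 between horses. The fit had no term for horse, and a fit with one was among 17 alternatives, which also changed the pseudocount (0.1), the filter, the scaling, the weights, the model (limma voom on recovered reads) and the libraries included, leaving out each horse in turn. DESeq2, which the authors used, was not run. Entries sharing a symbol with another entry (744) were left out of the pathway lists. Some list members, such as PABPC1 and RHEB, were not analysed here. A gene that the rule names at 10 days is not reported here. Counts do not separate overlapping genes or the reads of ribosomal protein pseudogenes.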

Additional observations from a re-analysis of the deposited data

Results flagged for a closer look

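Within each group the highest and the lowest library were compared with the rest of the group by Dixon's gap test on log2(GeTMM + 1). The values printed below are in GeTMM, on which the gaps are not the same. Of 90 combinations of gene and group, 12 held a library set apart, and chance alone flags about 1 in 20 such groups. The SF library of Moon at 6 days accounted for 5 of them. It was the lowest of its group for EIF4E (25.8 GeTMM, others 77.3 to 138), EIF4EBP2 (9.37, others 24.4 to 31.3), MTOR (2.56, others 8.48 to 14.2), RPS6KB1 (9.38, others 24.2 to 36.2) and TSC1 (1.09, others 6.48 to 10.96).

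EIF4EBP1 had a single high library in SF at 96 hours (RimRun, 75.7 GeTMM, others 25.0 to 36.7) and in SF at 10 days (Lurie, 59.8, others 13.5 to 20.9). The SF library of Dealings at 48 hours was high for EIF4G1 (149 GeTMM, others 79.3 to 95.1) and for MTOR (13.99, others 9.44 to 10.9). Before culture, Catnip was low for RPTOR (10.4 GeTMM, others 13.7 to 17.3) and Ollie for TSC2 (11.04, others 15.96 to 20.3). In ISF at 48 hours RimRun was low for TSC1 (4.64 GeTMM, others 7.62 to 9.06).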

How the results depend on the processing

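Counts of the 9 genes called in ISF against SF changed as follows. At 48 hours, where the all-library fit called 0, a term for horse (replicate block), a fit of the compared groups, quantile normalisation and leaving out the SF library of Moon each called 1, library weights called 2, and leaving out a horse gave 0 to 1. Of all genes, the first 4 of these settings called 4.53%, 2.38%, 2.72% and 5.0%, against 1.68% in the all-library fit. At 96 hours (2) quantile normalisation and omitting the Dealings and Dreamer libraries of ISF called 1, and leaving out a horse 1 to 2. Quantile normalisation called 11.4% of all genes at that time, against 10.5% in the all-library fit. At 10 days (1) a fit of the compared groups called 0, and leaving out a horse 0 to 1. That fit called 20.4% of all genes, against 20.8% in the all-library fit. For the other settings, and for the intervals that follow, the share of all genes under an alternative is not given. Those counts are therefore not read as changes of the 9 genes. In ISF from 48 to 96 hours (1) the compared groups and leaving out the libraries of Dealings and Dreamer gave 0, weights and leaving out that of Moon 2, and leaving out a horse 0 to 1. In ISF from 96 hours to 6 days (0) the block, quantile normalisation, weights and leaving out that of Moon gave 1, and leaving out a horse 0 to 1. In ISF from 6 to 10 days (1) the compared groups gave 0, weights 2, and leaving out a horse 0 to 2. In SF from 48 to 96 hours (2) the block gave 3 and leaving out a horse 1 to 3, and from 96 hours to 6 days (0) the block gave 1. Of the 72 ribosomal and TOP genes at 6 days, 66 were called, 4 in a fit of the compared groups and 56 without the library of Moon, and at 96 hours none, 29 and 7, while at 10 days quantile normalisation called 18 against none. The shares of all genes beside these list counts are given with the results. The causes were not tested. The block changed no call of the 9 genes beyond the 4 given with the results, and no difference changed sign past the threshold. Over the alternatives the EIF4E difference ranged from 0.24 to 0.35, 0.55 to 0.69, 0.98 to 1.37 and 0.69 to 0.99 in order of time. TSC1 had the lowest read count of the 10 genes in any library, 56 reads in the SF library of Moon at 6 days.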
